A study of Caenorhabditis elegans with 2 samples.

Results

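The chaperone and chaperonin genes of Caenorhabditis elegans were taken as every nuclear protein-coding gene of the WBcel235 annotation whose symbol starts with hsp-, dnj-, cct- or pfd-, which gave 65 of 19973 genes. They comprised 7 constitutive genes of the Hsp60, Hsp70, Hsp90 and Hsp110 classes, 8 subunits of the CCT chaperonin, 6 prefoldin subunits, 29 J-protein genes, 2 stress-inducible Hsp70 genes, 6 hsp-16 genes and 7 other small heat shock genes. The 7 constitutive hsp genes, the CCT subunits and the prefoldin subunits are called constitutive chaperones here, 21 in all. Occupancy by TBX-7, a T-box transcription factor, was measured by ChIP-seq, the sequencing of DNA recovered with a tagged chromatin protein, in hermaphrodites of strain OP311 at the late embryonic stage, 3 h after synchronization by egg bleaching. Worms of this strain carry a stable transgene for TBX-7 with GFP and FLAG fused at its C terminus, and an antibody against GFP was used, per the labels. There were 2 biological replicates in 1 group, so no condition was compared, and whole embryos were used, so occupancy is averaged over all cell types. The sources used here give neither the promoter that drives the transgene nor the depth of the libraries.

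Chaperones hold unfolded proteins until they fold. Hsp70 proteins bind exposed hydrophobic stretches in a cycle driven by ATP, J-proteins bring substrates to them and start the cycle, Hsp110 proteins release the nucleotide, Hsp90 acts on a set of nearly folded clients, and Hsp60 and CCT enclose a substrate in a ring. Prefoldin hands nascent actin and tubulin to CCT, whereas the small heat shock proteins hold denatured proteins without ATP, and the hsp-16 genes of C. elegans are known for near silence at rest and very strong induction by heat through the heat shock factor HSF-1.

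A gene was counted as bound when the summit of a peak lay between 1000 bp upstream and 200 bp downstream of its start. The authors' final list was thresholded by the irreproducible discovery rate (IDR), a measure of how alike peaks rank between replicates, and held 690 peaks. In this list 11 of the 65 genes were bound (16.9%), against 3.12% of all protein-coding genes. The bound genes were the Hsp70 genes hsp-1 and hsp-3, the mitochondrial chaperonin gene hsp-60, the CCT genes cct-2 and cct-7, the prefoldin genes pfd-4 and pfd-5, and the J-protein genes dnj-12, dnj-13, dnj-28 and dnj-29. Constitutive chaperones made up 7 of the 11, a share of 33.3% of their class, and J-protein genes the other 4, or 13.8% of theirs. No hsp-16 gene, no other small heat shock gene and neither inducible Hsp70 gene was bound. With so few genes, 0 of 7 other small heat shock genes carries a rough limit of 3 counts, or a bound share of 42.9%. This limit takes the genes as independent, which was not tested. Of the 6 hsp-16 genes, 4 have promoters made almost wholly of repeated sequence, where a missing peak may not be measurable, and the other 2 share 1 promoter region, so no limit was set on the bound share of this class. A difference between the constitutive and the hsp-16 genes could not be measured with these genes.

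**Figure D1:**
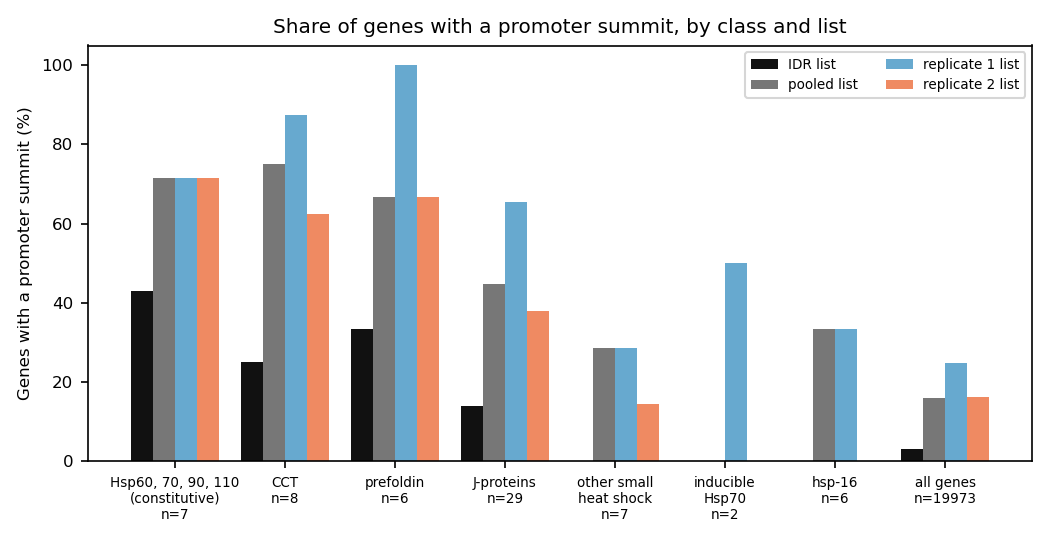
Percent of genes in each class with a peak summit in the promoter (vertical axis) in the IDR, pooled, replicate 1 and replicate 2 lists (bar colours), with the number of genes under each class. The 3 constitutive classes reached 25% to 42.9% in the IDR list, and all genes 3.12%. The hsp-16, other small heat shock and inducible Hsp70 genes were at 0 there. Of the 6 hsp-16 promoters, 4 are almost wholly repeated sequence and the other 2 share 1 region. The hsp-16 bars therefore cannot be set against those of the constitutive classes.

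The summit windows of 6 bound constitutive genes and of dnj-13 are shown because they allow the sites to be set side by side with the hsp-16 promoters. Each runs 50 bp to either side of the IDR summit, 101 bases in all, on the strand of the gene, and the hsp-3 window ends at the base before the gene start, after 95 bases. Sequences are from the RefSeq assembly of WBcel235. Capitals mark CCAAT and CGGCCA, a pair of words picked after these windows had been read, and the heat shock words GAANNTTC and TTCNNGAA, each on either strand.
hsp-1: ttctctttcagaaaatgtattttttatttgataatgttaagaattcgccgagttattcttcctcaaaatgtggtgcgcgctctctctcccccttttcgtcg
hsp-3: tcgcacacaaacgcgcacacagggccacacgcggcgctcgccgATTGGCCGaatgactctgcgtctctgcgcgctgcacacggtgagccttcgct
hsp-60: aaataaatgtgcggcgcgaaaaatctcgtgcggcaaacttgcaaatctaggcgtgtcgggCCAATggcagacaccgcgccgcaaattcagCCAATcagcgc
cct-7: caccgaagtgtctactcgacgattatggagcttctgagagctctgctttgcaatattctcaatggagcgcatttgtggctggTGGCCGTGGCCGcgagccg
pfd-4: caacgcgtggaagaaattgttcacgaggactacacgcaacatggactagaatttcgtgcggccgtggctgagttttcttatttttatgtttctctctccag
pfd-5: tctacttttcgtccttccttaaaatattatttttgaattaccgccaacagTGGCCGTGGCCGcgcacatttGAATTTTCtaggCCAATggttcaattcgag
dnj-13: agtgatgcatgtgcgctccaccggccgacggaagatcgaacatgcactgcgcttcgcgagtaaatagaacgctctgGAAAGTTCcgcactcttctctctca
The windows of hsp-1 and pfd-4 held none of the 4 words. The others held 1 to 4 copies of them, and cct-7 and pfd-5 each had CGGCCA directly repeated on its reverse strand.

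Among the constitutive hsp genes, hsp-3, which encodes an Hsp70 of the endoplasmic reticulum, had its summit closest to the start. The peak at X:6091947-6092390 had a summit 45 bp upstream of hsp-3 and a signal of 158 on the scale of the authors' caller, rank 245 of 690. Its signal was 77.6 in the list of replicate 1 (rank 295) and 77 in that of replicate 2 (rank 239). The cytosolic Hsp70 gene hsp-1 had a weaker peak at IV:17278331-17278774, 406 bp upstream, with signal 111 and rank 461, and with signals of 66.2 and 45.5 in replicates 1 and 2. For hsp-60 the peak at III:1618896-1619339 lay 624 bp upstream, the farthest of the 11, with signal 158, and with 86.1 in replicate 1 and 68.2 in replicate 2. No other promoter held the summits of hsp-1 and hsp-3, whereas the hsp-60 summit was closer to the divergent gene Y22D7AL.10, 189 bp upstream of it.

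The other constitutive hsp genes had weaker or no peaks in their promoters. The Hsp110 gene hsp-110, whose product exchanges nucleotide on Hsp70, had a pooled-list peak of signal 76.3 and rank 849 at 211 bp upstream, which stood at rank 461 in replicate 1 and had no summit in the promoter in replicate 2. The mitochondrial Hsp70 gene hsp-6 had a peak of signal 67 and rank 1096 at 450 bp upstream, listed at rank 1295 in replicate 1 and 1682 in replicate 2. The promoter of hsp-75, the gene for the mitochondrial Hsp90, had a summit in none of the 4 lists, and its nearest IDR summit was 27.7 kb away.

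The cytosolic Hsp90 gene hsp-90, also called daf-21, was not bound by the rule, but a strong peak lay inside it. The peak at V:14685634-14685873 had its summit 838 bp downstream of the gene start, in an intron, with signal 355 and rank 37, above all 11 bound chaperone genes. It was listed at signal 216 and rank 20 in replicate 1 and at signal 138 and rank 60 in replicate 2. The annotation gives hsp-90 2 transcript starts, and the summit was 404 bp upstream of the second, at position 14686160. The same summit lay in the promoter of C47E8.4. The gene start itself had a summit only in replicate 2, of signal 23.6 and rank 4984, at position −367 from the start. The window around the intronic summit is given because it is the strongest site in a chaperone gene, with the same words in capitals.
hsp-90: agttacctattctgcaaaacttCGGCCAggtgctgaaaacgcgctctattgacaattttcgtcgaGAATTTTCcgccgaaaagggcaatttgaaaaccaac
It held 1 copy of CGGCCA and 1 of GAANNTTC.

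Of the 8 CCT genes, whose products form the ring that folds actin and tubulin, cct-2 and cct-7 were bound. The cct-2 peak had a signal of 174, with 96.1 in replicate 1 and 75.3 in replicate 2. The cct-7 peak at V:1871727-1872170 had its summit 297 bp upstream and a signal of 156, with 88.9 in replicate 1 and 62.8 in replicate 2. The pooled list added cct-5 (signal 66.4, rank 1118, 215 bp upstream), cct-8 (56.5, rank 1649, 460 bp upstream), cct-6 (44.7, rank 3226, 279 bp upstream) and cct-1 (35.3, rank 6807, 104 bp downstream). The first 3 had a promoter summit in both replicate lists, and cct-1 in replicate 1 only. For cct-4 there was only a weak peak in replicate 1, of signal 14.7 and rank 14286, and cct-3 had a summit in no list. The subunits of this complex thus ranged from rank 215 of the pooled list to no peak.

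Of the 6 prefoldin genes, pfd-5 had the strongest promoter peak of all 65 genes. The peak at III:7198907-7199182 had its summit 168 bp upstream of pfd-5 and a signal of 302, rank 67, with a signal of 182 (rank 51) in replicate 1 and 123 (rank 85) in replicate 2. The pfd-4 peak at IV:11314857-11315300 lay 128 bp upstream with a signal of 205, and with 113 in replicate 1 and 89.7 in replicate 2. The pooled list also held summits at pfd-1 and pfd-3, and the remaining pfd-2 and pfd-6 had a summit in a replicate list only. Every prefoldin gene had a promoter summit in replicate 1, where 24.7% of all genes had one, and 4 of the 6 had one in replicate 2, against 16.3%. Some of these were near the bottom of their list: pfd-2 stood at rank 11412 and pfd-6 at rank 11313 in replicate 1, each with a −log10 q of 0.07.

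The 4 bound J-protein genes spanned most of the range of signal. The peak of dnj-12, which encodes a cytosolic J-protein, was the strongest, at I:14756380-14756579, 411 bp upstream with a signal of 237, and with 113 in replicate 1 and 126 in replicate 2. A second summit of dnj-12, in the peak at I:14756561-14757004, lay 121 bp upstream with a signal of 124. For dnj-28 the peak at I:2996287-2996499 was 124 bp upstream with a signal of 211, and with 98.5 in replicate 1 and 106 in replicate 2. The dnj-29 gene, whose product is the Sec63 homologue of the endoplasmic reticulum translocon, had a peak at I:14113041-14113484, 155 bp upstream, with a signal of 162 and with 75.1 and 85.5 in the replicates. The weakest of the 11 was dnj-13, which encodes another cytosolic J-protein, at II:11545267-11545710, 212 bp upstream with a signal of 94.9 and rank 591. Replicates 1 and 2 listed the dnj-13 peak at 55.8 and 41.9. The dnj-12 peak stood at rank 139 in the replicate 1 list and at rank 80 in that of replicate 2, and the dnj-13 peak at ranks 529 and 773. The scale of the signal is set within each list, so genes can be ordered within a list, but the sizes cannot be set against each other between lists.

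**Figure D2:**
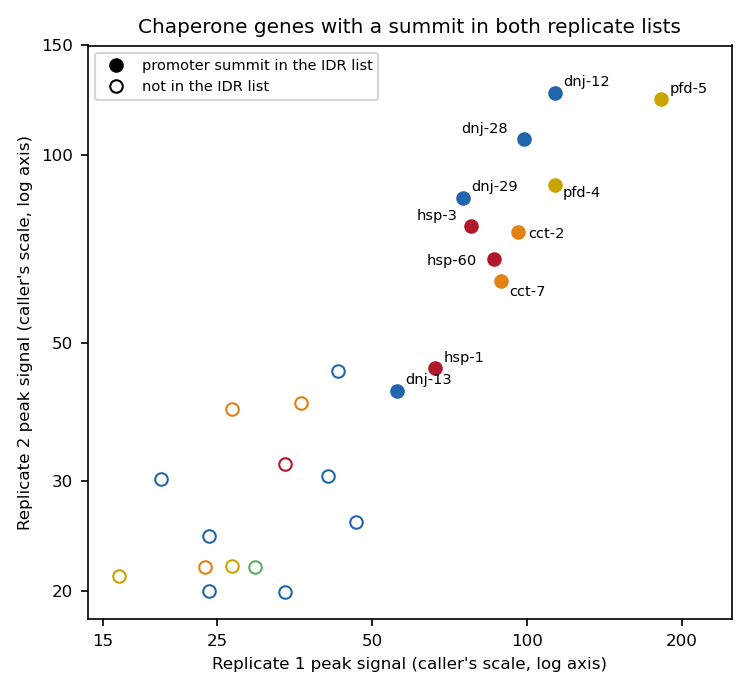
Signal of the strongest promoter peak in replicate 1 (horizontal, log axis) and replicate 2 (vertical, log axis) for the 25 chaperone genes with a promoter summit in both lists, on the scale of the authors' caller and coloured by class as in the plot of summit positions. Filled points are the 11 genes bound in the IDR list, which lay at 55.8 or above in replicate 1 and 41.9 or above in replicate 2, and open points are genes not in that list.

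All 11 bound genes had a summit within 100 bp of the IDR summit in both replicate lists, as had 97.6% of all bound genes. The IDR weighs agreement between replicates, so this follows largely from how the list was made. The strongest peak of each of the 11 had the same rank in the IDR list as in the pooled list, from 67 at pfd-5 to 591 at dnj-13. The pfd-5 summits lay 0 and 15 bp from the IDR summit in replicates 1 and 2, and those of dnj-12 lay 11 and 13 bp from it. The list on both replicates together before the IDR test held 8759 peaks and placed a summit at 32 of the 65 genes (49.2%, against 15.8% of all genes). When that list was limited to peaks with a −log10 q of at least 2, 14 genes remained (21.5%, against 3.71%), and the genes it added were hsp-110, dnj-9 and dnj-14. The replicate 1 list of 16060 peaks held a summit at 42 genes (64.6%, against 24.7%), and the replicate 2 list of 9840 peaks at 26 (40%, against 16.3%). There were 25 genes with a summit in both replicate lists (38.5%, against 10.6%). For 22 genes (33.8%) no list had a summit, whereas this held for 69.1% of all protein-coding genes.

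These longer lists were made permissive for the IDR test and hold many weak peaks. In the list on both replicates together, 15 of 21 constitutive chaperones (71.4%), 13 of 29 J-protein genes (44.8%), 2 of 6 hsp-16 genes (33.3%) and 2 of 7 other small heat shock genes (28.6%) had a summit, against 15.8% of all genes. In replicate 1 these counts were 18, 19, 2 and 2, against 24.7% of all genes, and in replicate 2 they were 14, 11, 0 and 1, against 16.3%. The hsp-16 counts of 2 come from the pair hsp-16.2 and hsp-16.41, which share 1 pooled summit. The other 4 hsp-16 promoters are almost wholly repeated sequence, so 33.3% is not a share of 6 separate promoters. Among the J-protein genes below the IDR list, dnj-14, which encodes the cysteine string protein of synaptic vesicles, came closest, with a signal of 77.2 at 256 bp upstream and rank 832. Its signals were 42.9 in replicate 1 and 45.1 in replicate 2, and the second was above that of dnj-13. It was followed by dnj-9 (signal 73.7, 248 bp upstream, rank 891) and dnj-19 (signal 73, 431 bp upstream, rank 912). Weaker peaks lay at dnj-5, dnj-7, dnj-11 and dnj-23. Of the small heat shock genes outside hsp-16, only hsp-12.2 had a summit in both replicate lists, and its pooled signal was 51 at 104 bp upstream, rank 2189. Of the inducible Hsp70 genes, hsp-4, the stress-induced Hsp70 of the endoplasmic reticulum and the paralogue of hsp-3, had a weak summit in replicate 1 only (signal 21.8, rank 4525, 18 bp upstream), and hsp-70 had none.

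**Figure D3:**
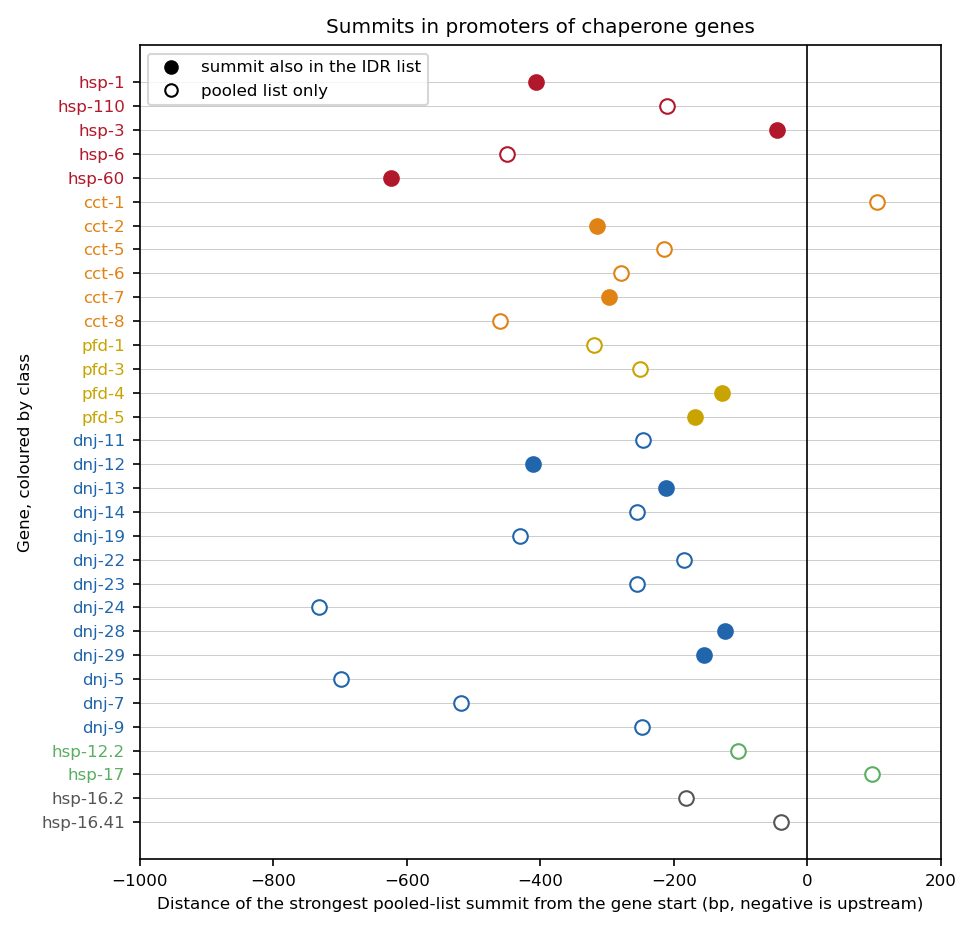
Distance of the strongest pooled-list summit from the gene start, in bp with negative values upstream (horizontal axis), for the 32 chaperone genes with such a summit, coloured by class. Filled points mark the 11 genes whose summit is also in the IDR list, all between 45 and 624 bp upstream; the open hsp-16.2 and hsp-16.41 points are 1 shared summit.

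The hsp-16 genes lie on chromosome V in divergent pairs, and only the pair of hsp-16.2 and hsp-16.41 had any peak. A single summit between them, 182 bp upstream of hsp-16.2 and 39 bp upstream of hsp-16.41, had a pooled signal of 41.2 and rank 4150, with a −log10 q of 0.19. Replicate 1 listed 2 summits in each of these promoters. The stronger was 20 bp from the pooled summit, with a signal of 28.3, rank 2040 and a −log10 q of 0.94. Replicate 2 listed none. The annotation holds hsp-16.1 and hsp-16.48 as 2 copies each, and these 4 genes had no summit in any list. Their nearest IDR summits were 254 to 257 kb away, and those of hsp-16.2 and hsp-16.41 were 67 and 66.8 kb away. The sequence between the starts of hsp-16.2 and hsp-16.41 is shown as the counterpart of the bound windows, on the plus strand at V:1804958-1805177, with capitals for the heat shock words GAANNTTC and TTCNNGAA alone.
hsp-16.2 to hsp-16.41: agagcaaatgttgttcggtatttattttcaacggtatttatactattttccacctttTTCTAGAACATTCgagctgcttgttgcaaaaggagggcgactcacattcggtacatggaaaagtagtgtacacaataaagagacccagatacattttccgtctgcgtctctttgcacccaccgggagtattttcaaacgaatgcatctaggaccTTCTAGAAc
The words overlap in a run near the hsp-16.2 end, and 1 word is marked next to the start of hsp-16.41.

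The promoters of the hsp-16.1 and hsp-16.48 copies consist almost wholly of sequence that occurs more than once in the genome. Only 6.33% and 6.58% of the positions in the promoters of the hsp-16.1 copies, and 0% for both hsp-16.48 copies, began a 36-base word found once in the genome. The values were 98.9% for hsp-16.2 and 98.3% for hsp-16.41. For the other 59 chaperone genes they ran from 81.7% to 100% with a median of 100%, and the 11 bound genes ran from 82.6% to 100%. The sources used here do not give how reads that match several places were treated, and the part of repeated sequence in the 0 peaks at these 4 copies was not tested. The 2 hsp-16 genes with mostly unique promoters share 1 pooled summit and stand for 1 region. That region had no summit in the IDR list, a summit in the pooled list and in replicate 1, and none in replicate 2. For constitutive chaperones the shares were 33.3%, 71.4%, 85.7% and 66.7% in the same order, against 3.12%, 15.8%, 24.7% and 16.3% of all genes. A single region gives no share to set against these.

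**Figure D4:**
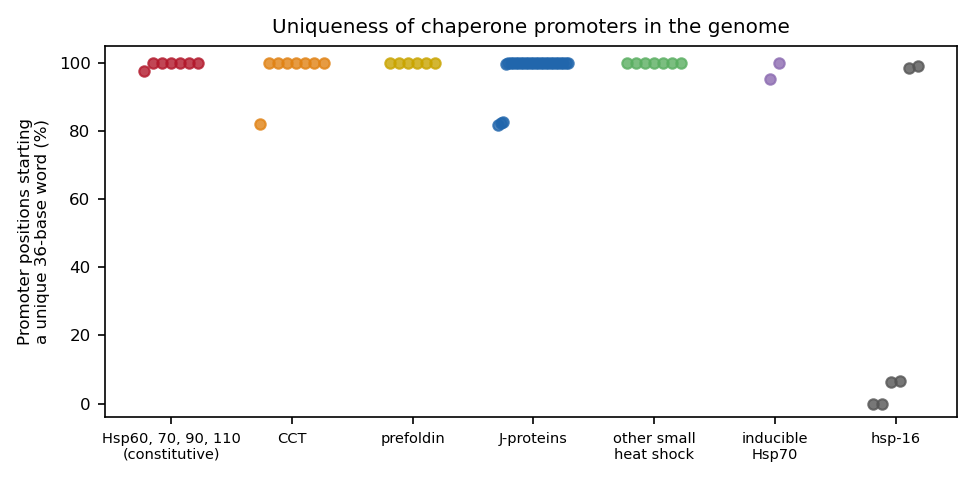
Percent of positions in each promoter that begin a 36-base word occurring once in the genome (vertical axis), 1 point per gene, by class. The 4 points at 0% to 6.58% are the copies of hsp-16.1 and hsp-16.48, and hsp-16.2 and hsp-16.41 are at 98.9% and 98.3%.

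Most bound chaperone genes shared their summit with a neighbour. Of the 11, 9 had at least 1 other protein-coding gene whose promoter held the same summit (81.8%, against 62.8% of all 623 bound genes), and for 8 that neighbour was divergent (72.7%, against 57.9%). The dnj-12 summit lay 81 bp upstream of mtx-1, a metaxin gene of mitochondrial import, and the pfd-4 summit 81 bp upstream of B0035.3. The pfd-4 summit was also 74 bp upstream of B0035.22, which is on the same strand as pfd-4. The dnj-29 summit was 373 bp upstream of ndua-2, a gene for a subunit of respiratory complex I, and 931 bp upstream of fld-1. At cct-7 the divergent gene T10B5.4 was nearer to the summit, at 142 bp, than cct-7 itself. The partner of dnj-28 was supr-1, 450 bp from the summit. The partner of dnj-13 was F54D5.9, 661 bp away. The partner of pfd-5 was on the same strand: exos-9, an exosome subunit gene, 979 bp away. A peak list does not say which gene of such a pair a site serves.

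All 11 summits were upstream of the gene start, as were those of 97% of all bound genes, and their median distance was 212 bp, against a median of 245 bp over all bound genes. Of the 11, 10 were intergenic (90.9%, against 83.3%), and the dnj-13 summit lay in an intron of dhgd-1. None lay within 200 bp of a small RNA gene. Their median signal was 162, against 150 over all bound genes, and 9 of 11 (81.8%, against 60.2%) were among the 345 strongest peaks of the IDR list. Just outside the promoter window, the pfd-4 summit was 1099 bp upstream of dnj-2. Farther from its window, an IDR summit of signal 89.5 was 947 bp downstream of the start of hsp-12.3. It was intergenic, past the end of hsp-12.3, and lay in the promoter of F38E11.9.

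The heat shock words are minimal forms of the element bound by HSF-1. GAANNTTC was in the windows of 2 of the 11 bound genes (18.2%), dnj-13 and pfd-5, against 4.93% of all 690 IDR windows and 7.25% of flanks 500 bp away. TTCNNGAA was in none of the 11, in 5.36% of the 690 and in 7.68% of flanks. With 100 bp to either side of the summit, GAANNTTC was in 5 of 11 windows (45.5%, against 11.3% of the 690 and 13.9% of flanks) and TTCNNGAA in 4 of 11 (36.4%, against 12.9% and 14.3%), so these counts depend on the width. Over whole promoters, the 1201-base promoters of hsp-16 genes held 5 to 8 copies of these words, which read the same on both strands, with a median of 6. These are not separate promoters: those of divergent hsp-16 pairs overlap, so some words were counted for both genes of a pair. The 2 hsp-16.48 copies had the words at the same positions. The promoters of constitutive chaperones held 0 to 7 with a median of 3, those of J-protein genes 0 to 5 with a median of 2, and all genes had a median of 2. GAANNTTC was in 70.8% of chaperone promoters and 57.2% of all promoters, and TTCNNGAA in 75.4% and 57.9%.

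The T-box core GGTGT was in the windows of dnj-29 and hsp-60, 2 of the 11 (18.2%), and in 17.2% of the 690 windows and 10.1% of flanks 500 bp away. The longer word GGTGTGA was in none of the 11 and in 0 of the 690 windows. With 100 bp to either side, GGTGT was in 4 of 11 (36.4%, against 28.6% of the 690 and 17.1% of flanks), so its count also depends on the width. GGTGTGA was then in 0 of 11 and in 4 of the 690. The counts that follow are again for 50 bp to either side. Of the words picked after reading the windows, which carry no weight for these genes, CCAAT was in 6 of 11 windows, among them those of dnj-12, dnj-29, hsp-3, hsp-60 and pfd-5, against 15.2% of the 690 and 18.4% of flanks. CGGCCA was in 5 of 11, among them those of cct-7, dnj-12, hsp-3 and pfd-5, against 18.7% of the 690 and 2.9% of flanks. CAATGG, which can overlap CCAAT, was also in 5, among them those of cct-7, dnj-28, hsp-60 and pfd-5, against 7.68% and 4.06%. The windows of the 11 had a median GC content of 47.5%, from 38.6% at hsp-1 to 66.3% at hsp-3, beside 48.5% for all IDR windows and 36.6% for flanks. Words were searched on both strands, and a match is only a run of letters.

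Among 63 related folding genes outside the 4 symbol families, 8 were bound (12.7%, against the same 3.12% of all genes). The strongest were cyn-10, a cyclophilin gene (signal 430, rank 17, 137 bp upstream), bag-1, the gene of an Hsp70 co-chaperone (388, rank 24, 182 bp upstream), and ahsa-1, an Hsp90 activator gene (323, rank 57, 228 bp upstream), each above pfd-5. The cyclophilin gene cyn-4 followed (200, rank 162). The other 4 were the disulfide isomerase gene pdi-6 (146, rank 294), the Hsp90 gene enpl-1 (146, rank 297), the stress factor gene atf-6 (96.9, rank 573) and the calreticulin gene crt-1 (95.3, rank 587). The heat shock factor gene hsf-1 had no summit in any list, which held for 20 of the 63 (31.7%) and for 69.1% of all protein-coding genes.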

How the data were processed

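TBX-7 was profiled in 2 biological replicates of 1 group. Per the metadata deposited with the samples, each replicate list was called against the same control alignment, and the pooled and IDR lists used both replicates. Peak signal (column 7) and the −log10 of the q-value (column 9) are the authors' own values, deposited on the scale of their peak caller, and were compared within a list alone. No source used here gives the aligner, the caller, their versions or the depth.

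Summits (column 2 plus column 10) of the ce11 lists, written as 1-based positions, were placed on Ensembl release 115 genes and the RefSeq sequence of WBcel235, the same assembly. Mitochondrial genes were left out, and the sequence at cct-2 is not reported here. Each summit counted for every promoter that held it. Control points for words lay 500 bp from the summits. Counts stand beside those over all 19973 genes, with no test, since members and lists were chosen with earlier results of these data known. Of 64 related symbols, 63 matched a gene. Genes named were the bound members, the hsp-16, constitutive and inducible Hsp70 genes, at most 8 others with summits in the pooled and both replicate lists, and bound related genes. Named after their values were seen were dnj-2, hsp-12.3 and hsf-1. Counts of 0 carry a limit of 3 counts. Alternatives changed the window, start, overlap, list and replicate. Python 3.11.15 and numpy 2.4.6 were used, and the scripts were tested on simulated data.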

Additional observations from a re-analysis of the deposited data

How the results depend on the processing

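The count of bound chaperone genes, 11, or 16.9% against 3.12% of all genes, was 10 with a window of 500 bp upstream and 100 bp downstream (2.46% of all genes) and 12 with 2000 and 500 bp (4.04%). It was 12 with any transcript start (3.36%) or with overlap in place of the summit (3.39%), 8 with the nearest gene start only (2.12%), 9 among the 345 strongest peaks (1.88%) and 14 in the pooled list with a −log10 q of at least 2 (3.71%). It was 11 without replicate 1 (2.99% of all genes) and 12 without replicate 2 (3.09%), each list limited to its 690 strongest peaks. Of the 11 without replicate 1, 10 were in the main count, with dnj-13 lost and dnj-14 gained. For constitutive chaperones, 7 bound genes became 4 with the nearest start only, where hsp-60, pfd-4 and cct-7 went to their neighbours, and the other alternatives gave 6 to 8. J-protein genes ranged from 3 to 6, and no hsp-16 gene was bound under any of the 10 alternatives. For hsp-16 this was largely fixed in advance. Their nearest IDR summits were 66.8 to 257 kb away, beyond any window used, and 4 of the 6 promoters are almost wholly repeated sequence. Over all protein-coding genes 623 became 375 among the 345 strongest peaks, a list with fewer peaks by construction. The 6 genes cct-2, dnj-12, dnj-28, dnj-29, hsp-3 and pfd-5 were bound under all 10. The hsp-90 gene was bound with any transcript start, hsp-110 in the pooled list with the q limit and without replicate 2, and dnj-13 was lost without replicate 1. Leaving out summits within 200 bp of small RNA genes, an alternative chosen after seeing the data, gave 11 bound genes. No paired analysis was possible because there is 1 group and the results come from no test. With 2 samples, no depth and no control reads, weak sites such as those at cct-4 or hsp-4 cannot be told from background.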
